A study of Danio rerio with 9 samples.

Results

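The comparison described here sets zebrafish larvae without zPER2 and zCRY1a, or without zPER2, zCRY1a and zCRY2a, against wild type (WT) larvae after 12-h light. It takes 3 of the 9 arrays of the study, which are those of WT, zPer2/zCry1a double knockout (DKO) and zPer2/zCry1a/zCry2a triple knockout (TKO) larvae given 12-h light. The other 6 arrays, from the same genotypes in darkness or at 3-h light, serve only to separate a difference seen at 12-h light from one that was there under every lighting. RNA came from the whole body of larvae at 6 days post fertilization (dpf). All larvae were raised in constant darkness from fertilization, and the light was given at 6 dpf. For DKO larvae the study places sampling at 12 h after light onset, so that larvae given 3-h light were by then back in darkness. The zPer2 and zCry1a mutations are nonsense mutations made with TALENs and joined by crossing. The TKO fish were made by injecting Cas9 mRNA and a guide RNA against zCry2a into DKO embryos. Each condition has 1 array, and how many larvae gave the RNA of an array is not given in the sources used here. DKO and TKO are different genotypes and not replicates of each other, so the value of each is given.

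The circadian clock of a cell is a negative feedback loop that runs through a day. Its positive arm consists of bHLH-PAS transcription factors encoded by the clock, npas2 and bmal genes, and its negative arm of the Period (Per) and Cryptochrome (Cry) proteins. Many of the Per and Cry genes are themselves targets of the positive arm. The study describes zPer2 and zCry1a as exceptions, which respond to light and not to that arm. A second loop runs through REV-ERB nuclear receptors such as nr1d1 and through the repressors bhlhe40 and bhlhe41, and a further layer through D-box factors such as tefa and dbpb. In zebrafish, light itself induces some members, among them per2 and cry1a, and thereby sets the phase of clocks throughout the body. The pineal enzyme AANAT2, which limits the rate of melatonin synthesis, is under control of the same loop.

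On the 9 arrays, 85.9 to 89.8% of the spots were well above background, the 75th percentile of the signal lay between 547 and 636, and no spot was saturated. A level below is the log2 signal of a probe minus the 75th percentile of its array, so that a level of 0 is the 75th percentile of that array. A difference is a knockout level minus the WT level at the same lighting. The median difference of all probes was -0.05 at 12-h light, -0.05 in darkness and -0.05 at 3-h light. Spots of the same probe had a standard deviation (SD) of 0.141 (log2), which gives 0.199 for a ratio of a pair of arrays, and this spread leaves out variation between larvae. Over all probes, TKO minus DKO had an SD of 0.33 at 12-h light, 0.29 at 3-h light and 0.53 in darkness. In darkness 2118 probes (5.32%) were at least 2-fold higher in TKO than in WT larvae, beside 838 (2.1%) in DKO larvae. The TKO dark array thus stood further from WT, and it enters every mean in darkness and every TKO change from darkness below. Each genotype lay on a slide of its own, so genotype and slide cannot be told apart, and 12-h light lay at position 3 or 4 of each slide.

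At 12-h light, 981 of 39834 probes (2.46%) were at least 2-fold apart from WT larvae in the same direction in DKO and in TKO larvae. More of them were higher in the knockouts, with 725 higher (1.82%) and 256 lower (0.643%). In darkness the same rule counted 666 probes (1.67%), with 480 higher (1.21%) and 186 lower (0.467%), and at 3-h light it counted 689 (1.73%), with 515 higher (1.29%) and 174 lower (0.437%). Since both ratios use the same WT array, these counts describe 3 arrays and have no replicate check. Probes were kept by the 12-h light arrays alone, which can leave out probes measured only in darkness or at 3-h light. The 12-h light count is therefore not on equal terms with the others. Of the 725 higher probes, 110 (15.2%) were not well above background on the WT 12-h light array. Of the 256 lower probes, 39 (15.2%) were well above it on neither knockout array at 12-h light. Those probes entered only through the group in which they were higher. Of the 981 probes, 504 (51.4%) were 2-fold apart the same way in both knockouts at 3-h light and 460 (46.9%) in darkness.

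The 981 probes were then split by lighting. A difference was called specific to 12-h light when the mean of DKO and TKO exceeded that in darkness and that at 3-h light each by at least 1 (log2) in the same direction, and constant when both knockouts were 2-fold apart the same way under all lightings. By this rule 57 probes were specific (0.143% of all) and 370 constant (0.929%), with 2 probes in both classes and 556 in neither. Specific probes made up 16 of the 725 higher probes (2.21%) and 41 of the 256 lower probes (16.0%), which is 0.0402% and 0.103% of all probes. The constant probes were 286 higher (0.718%) and 84 lower (0.211%). Among 13020 genes with a symbol, taking the mean of a gene's probes, 115 were higher in both knockouts (0.883%) and 65 lower (0.499%). Of these, 68 were constant (0.522%) and 15 specific (0.115%), and the 15 comprised per1b and nr1d1 on the higher side (0.0154%) and 13 genes on the lower side (0.0998%).

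**Figure D1:**
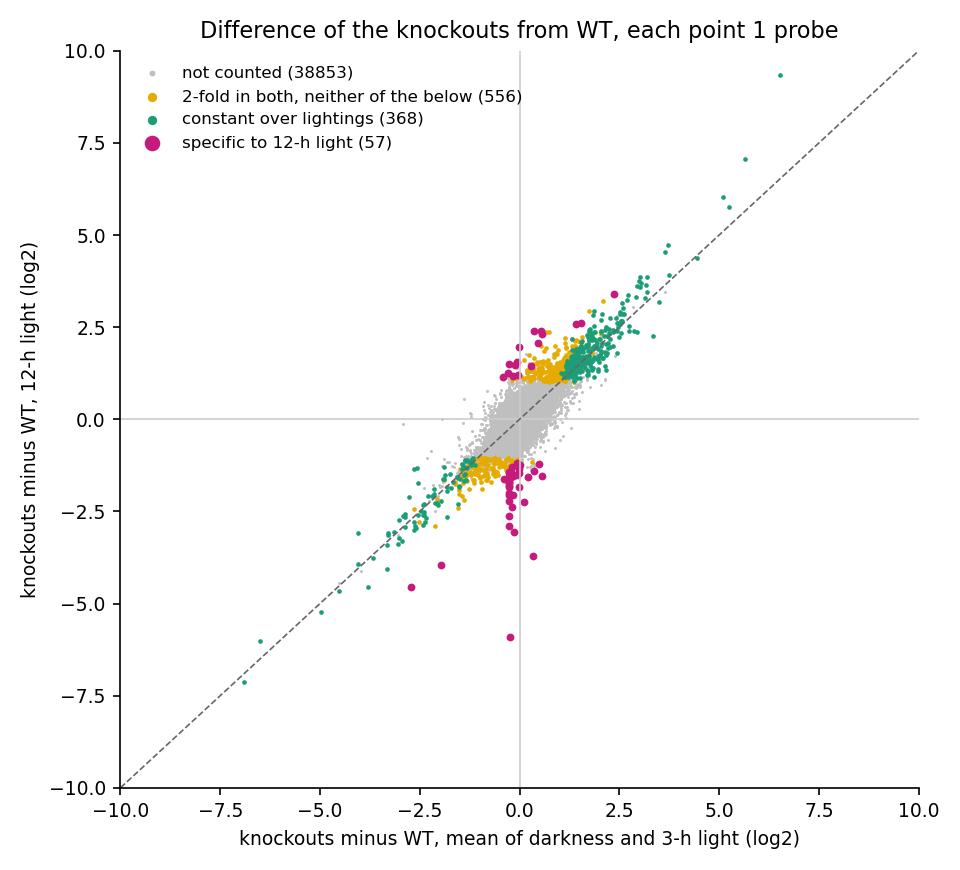
Knockout minus WT difference (mean of DKO and TKO, log2) at 12-h light on the vertical axis against the mean of that in darkness and at 3-h light on the horizontal axis, 1 point per probe. The 57 probes specific to 12-h light lie away from the diagonal, mostly below it, while the constant probes lie along it.

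A limma fit across all probes, with knockout or WT at each lighting as 6 groups, took its error from the spread between the DKO and TKO arrays and assumed that the lone WT array varies like them. It called 274 probes at 12-h light (0.688%, Benjamini-Hochberg adjusted p under 0.05), of which 216 were higher and 58 lower in the knockouts. In darkness it called 164 (0.412%) and at 3-h light 119 (0.299%), on the same probes, which were filtered by the 12-h light arrays alone. Of the 274 calls, 245 were also 2-fold apart in both knockouts and 159 (58.0%) belonged to the constant probes. A second fit, of the interaction between knockout and 12-h light with genotype and lighting as terms, called 11 probes (0.0276%), 1 higher and 10 lower. Of those 11 probes, 7 were well above background on the WT 12-h light array alone, so their fitted differences rest on signals near background elsewhere.

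The targeted genes come first. Because the mutations are nonsense mutations, the mRNA level does not check the genotype labels. At 12-h light per2, a light-induced repressor of the clock, stood at -2.0 in WT, -1.68 in DKO and -1.71 in TKO larvae. The level of per2 was thus 0.32 and 0.29 above WT. Of its 2 probes, the 1 that was well above background on all dark arrays lay 3.64, 3.82 and 4.56 above darkness in WT, DKO and TKO larvae. For cry1a, the other light-induced repressor that both knockouts lack, the levels were 1.68, 1.1 and 1.0. Its mean difference from WT was -0.63 at 12-h light, -1.11 in darkness and -0.28 at 3-h light. The zCry2a gene, cry3a in RefSeq naming and targeted only in TKO larvae, stood at 1.83, 1.36 and 0.84. All 3 levels of cry3a lay above those of the dark arrays, by 2.11, 1.72 and 1.99. None of the probes of per2, cry1a and cry3a was called at 12-h light (limma adjusted p of 0.179 or more).

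Several clock repressors that were not targeted were higher in the knockouts at 12-h light. Of 12 measured Per and Cry genes, per1b, per1a, cry1b and cry2 were at least 2-fold higher in both knockouts and none was lower. Of 11 measured genes in a list of other clock repressors and related genes, nr1d1 and bhlhe40 were higher and none lower. These counts stand beside 115 higher (0.883%) and 65 lower (0.499%) of all 13020 genes. The first list had a median difference of 0.48 at 12-h light, -0.10 in darkness and 0.13 at 3-h light, beside -0.06, -0.02 and -0.03 for all genes. The second list had medians of 0.32, -0.10 and -0.09. The first list includes the targeted per2, cry1a and cry3a, as well as cry5 and cry-dash. The second includes the casein kinase genes csnk1da, csnk1db and csnk1e and the F-box genes fbxl3a and fbxl3b. Neither median is therefore that of untargeted repressors alone. Over the 43 measured genes of the clock lists, 6 were 2-fold apart in both knockouts at 12-h light, 0 at 3-h light and 1 (cry1a) in darkness, beside 1.38%, 0.975% and 0.983% of all genes. The genes counted under every lighting were those measured at 12-h light. After normexp background correction with quantile normalization, per1a and cry1b were under 2-fold, with mean differences of 0.31 and 0.43.

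The largest of these differences was that of per1b, a Period gene of the core loop. Its level was -3.79 in WT, -1.73 in DKO and -1.48 in TKO larvae at 12-h light, and both knockout values lay above that of WT. In darkness its levels were -0.78 in WT, -0.80 in DKO and -0.67 in TKO larvae, which lie close together, and at 3-h light -1.48, -0.81 and -0.22. That makes per1b at least 4.56-fold higher in the knockouts at 12-h light, while its mean difference was 0.05 in darkness and 0.96 at 3-h light. In WT larvae per1b at 12-h light was at least 3.01 lower than in darkness, whereas it was 0.93 lower in DKO and 0.81 lower in TKO larvae. Of the 2 probes of per1b, the brighter differed by 2.32 (SE 0.286, limma adjusted p = 0.0425) and the other by 2.06. The latter entered the fit through the knockout arrays at 12-h light alone, so its p-value is not given. The dimmer probe was not well above background on the WT 12-h light array, so that its difference is a bound, at least 4.17-fold, and the values of the gene mean that use the WT 12-h light level are bounds too.

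For bhlhe40, which encodes the repressor also known as DEC1 in mammals, the levels at 12-h light were -1.0 in WT, 0.40 in DKO and 0.48 in TKO larvae. Its levels were -0.04, -0.13 and -0.16 in darkness and -0.38, 0.20 and 0.52 at 3-h light, where the order of genotypes was the same as at 12-h light. This is a 2.71-fold higher level, with a difference of -0.10 in darkness and 0.74 at 3-h light. Its brighter probe rose by 1.57 (SE 0.197, adjusted p = 0.0444). For nr1d1, the REV-ERB alpha gene that represses bmal genes in mammals, the levels were -1.24, -0.05 and 0.20. In darkness the order was the reverse, with -0.45 in WT, -0.64 in DKO and -1.1 in TKO larvae, and at 3-h light the 3 genotypes lay close together at 0.18, 0.10 and 0.03. This is a 2.49-fold higher level at 12-h light, beside differences of -0.41 in darkness and -0.12 at 3-h light, so nr1d1 met the rule for a difference specific to 12-h light. The 2 probes of nr1d1 had adjusted p of 0.0641 and 0.177.

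For cry2, a cryptochrome gene, the levels at 12-h light were -0.46 in WT, 0.59 in DKO and 0.63 in TKO larvae, and the mean difference of 1.07 compares with -0.52 in darkness and 0.12 at 3-h light. In darkness cry2 was highest in WT larvae, at 0.64 against 0.30 in DKO and -0.06 in TKO larvae. For cry1b, a paralog of cry1a, they were -4.72, -3.67 and -3.62, with differences of 1.08, 0.32 and 0.79 under 12-h light, darkness and 3-h light. Neither gene was called by limma, with adjusted p of 0.192 for cry2 and of 0.0605 or more for the probes of cry1b. The probes of per1a, another Period gene, did not move together. The dim one differed by 1.95 (SE 0.192, adjusted p = 0.0245) and the bright one by 0.21 (adjusted p = 0.796). The mean of per1a, 1.08, therefore rests on the dim probe.

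The changes along the lightings are described next. The 6 genes were picked because both knockouts lay above the WT 12-h light array. A low WT level at 12-h light is thus partly set by that choice and is not separate support. In WT larvae each of the 6 genes was lower at 12-h light than in darkness, by 0.79 for nr1d1, 0.95 for cry1b and bhlhe40, 1.1 for cry2, 1.25 for per1a and at least 3.01 for per1b. At 3-h light the WT levels did not go 1 way, since nr1d1 and per1a were 0.63 and 0.14 above darkness and per1b was below it (-0.70). In DKO larvae cry2, nr1d1 and bhlhe40 were instead higher than in darkness, by 0.29, 0.58 and 0.54, and in TKO larvae by 0.69, 1.3 and 0.63. The remaining 3 genes were lower than in darkness in the knockouts too, by 0.10 to 0.93 in DKO and 0.18 to 0.81 in TKO larvae. Among the 16 specific higher probes (0.0402% of all), 8 had a symbol, and 5 of these 8 were probes of per1b, nr1d1 and per1a. Clock-list genes hold 77 of all 39834 probes. The lists were chosen with earlier results of these data known, and none of the 77 was called for the interaction.

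**Figure D2:**
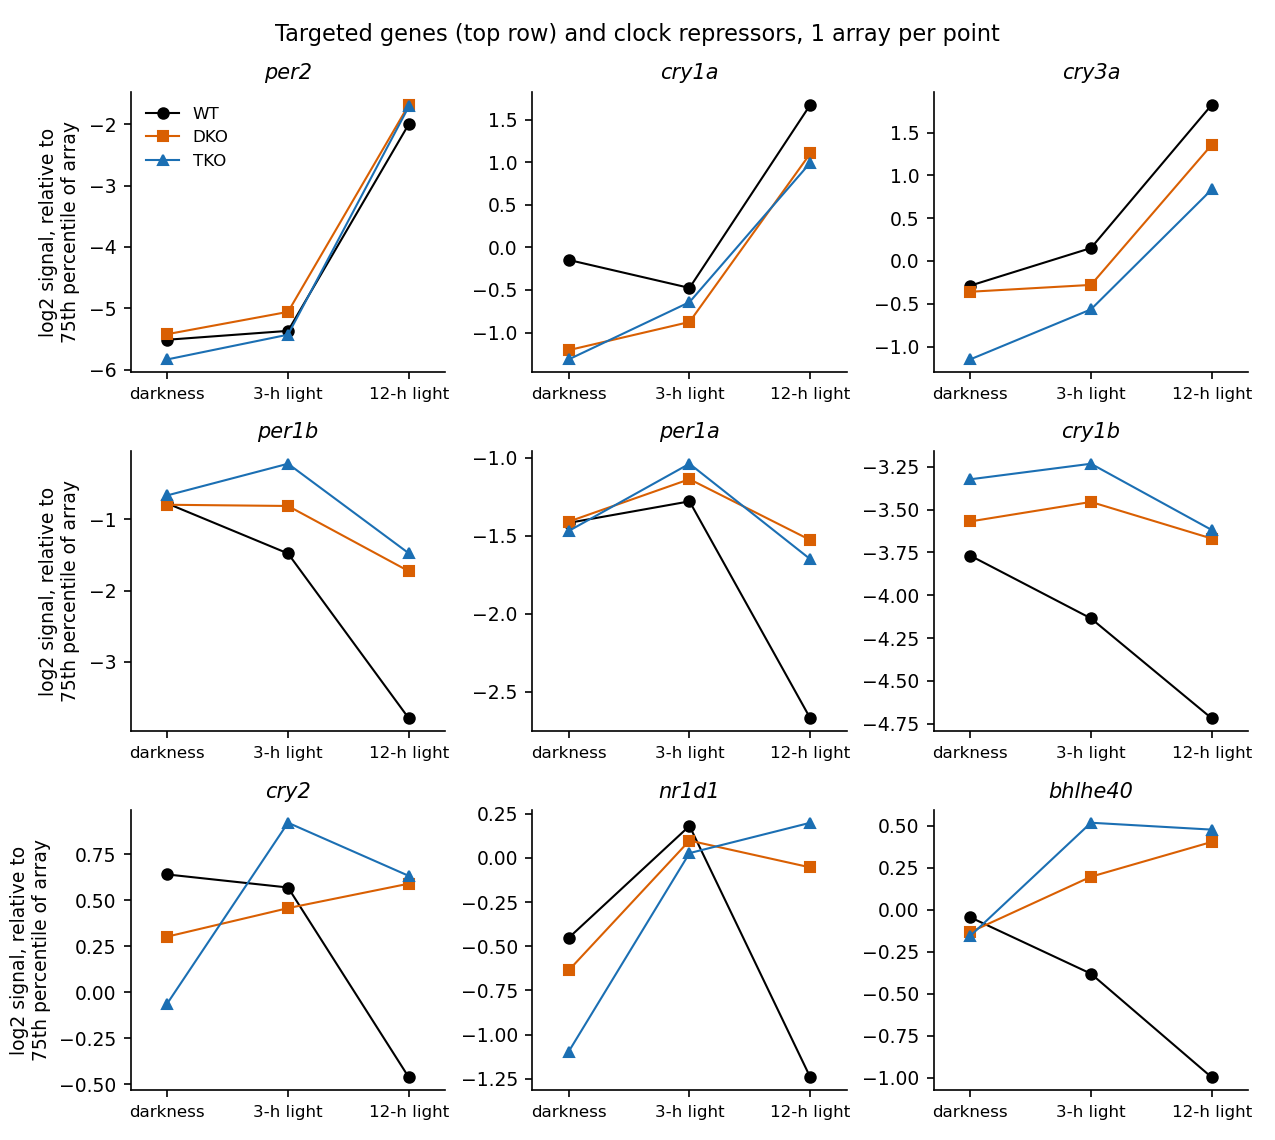
Log2 level relative to the 75th percentile of the array (vertical axis) by lighting (horizontal axis) for 9 clock genes, 1 point per array, with WT as black circles, DKO as orange squares and TKO as blue triangles. For per1b, per1a, cry1b, cry2, nr1d1 and bhlhe40 the WT point at 12-h light lies below both knockout points, while per2 lies within 0.32 of WT in both knockouts.

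Clock genes with smaller differences at 12-h light leaned the same way in part. For per3 the levels at 12-h light were -3.37 in WT, -2.43 in DKO and -2.50 in TKO larvae, a mean difference of 0.91. For nr1d2b, which encodes REV-ERB beta, the mean difference was 0.83. The probes of per3 differed by 1.38 and 0.43, and those of nr1d2b by 1.26, 0.84 and 0.37. The D-box factors had a median difference of 0.32 at 12-h light and -0.07 in darkness, with 0 of 9 genes called in either direction. Among them tefa, an activator at D-box elements, stood at 1.0, 1.78 and 1.92, and dbpb, another such activator, at -4.56, -3.69 and -3.39. In the same list nfil3-5, nfil3-6 and nfil3 went the other way, with mean differences of -0.58, -0.29 and -0.12, and 6 of the 9 genes were above 0. The 11 genes of the clock activator list, which includes ROR nuclear receptor genes such as roraa, had a median of -0.25 at 12-h light. Its median was -0.24 at 3-h light and -0.15 in darkness, so this lean was not particular to 12-h light. At 12-h light 2 of the genes were above 0 (18.2%, beside 38.7% of all genes) and none was called. The lowest of them was bmal2, a partner of CLOCK, at -2.73 in WT, -3.63 in DKO and -3.74 in TKO larvae (adjusted p = 0.191). The mean difference of bmal2 was -0.96 at 12-h light, -1.13 at 3-h light and -0.13 in darkness.

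Across the 77 probes of clock-list genes, limma called 3 at 12-h light, beside 0.688% of all probes. They were the probes of bhlhe40, per1a and per1b named above. Of the 77, 32 had an unadjusted p under 0.05, beside 4318 of all 39834 probes. It called 0 of the 77 at 3-h light and 0 in darkness, beside 0.299% and 0.412% of all probes. With shares that low, 0 of 77 does not set these lightings apart from 12-h light. The interaction fit, which tests whether the difference at 12-h light departs from that under the other lightings, called 0 of the 77. The smallest adjusted p among them was 0.556. An unadjusted p under 0.05 was found for 24 of the 77, beside 1132 of all 39834 probes. A difference of the clock repressors that is particular to 12-h light was therefore described by the fold rule and did not pass that test.

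In the melatonin pathway, aanat2 stood at 1.59 in WT, 0.45 in DKO and -0.33 in TKO larvae at 12-h light. At 3-h light the levels were 1.34, 0.46 and -0.23, and in darkness 0.10, -0.05 and -0.59, so that WT larvae were highest under each lighting. That is 2.90-fold lower in the knockouts, with differences of -1.15 for DKO and -1.92 for TKO. The difference was -1.22 at 3-h light and -0.42 in darkness, and in the limma fit aanat2 had an adjusted p of 0.272 at 12-h light. In WT larvae aanat2 at 12-h light was 1.49 above darkness, in DKO 0.49 and in TKO 0.26 above it. The related aanat1, which acts in the retina, had a mean difference of -0.80. Of 10 measured melatonin and pineal genes, aanat2 alone was 2-fold lower in both knockouts, beside 0.499% of all genes. The list's median was -0.16 at 12-h light and -0.20 in darkness. Within the list, asmt2 differed by -2.50 in DKO and -0.70 in TKO larvae at 12-h light. In DKO larvae asmt2 also differed by -2.40 in darkness and -2.16 at 3-h light.

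The genes lower in the knockouts at 12-h light alone were often dim. Of the 41 specific lower probes, 6 were well above background on all 9 arrays, 24 on neither knockout array at 12-h light, and 16 on the WT 12-h light array and no other. Over all probes, 98 were well above background on the WT 12-h light array alone, beside 29 on the WT dark array, 34 on the WT 3-h light array alone, 138 on the DKO and 115 on the TKO 12-h light array alone. Such probes are not particular to the WT 12-h light array, and a second WT array at 12-h light was not among the samples. Where a probe was not well above background in a group, the fold is a bound, taken against the higher of the probe's own signal and the lowest signal well above background of each array, and is written as at least.

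A gene of this kind that was well above background on all 9 arrays was zdhhc20a, which encodes a palmitoyltransferase of the DHHC family. It stood at -0.41 in WT, -4.08 in DKO and -4.14 in TKO larvae at 12-h light. In WT larvae it was at -4.31 in darkness and -4.38 at 3-h light, so that the WT 12-h light array stands apart from the other 8. The knockout arrays under those lightings lay between -4.27 and -3.81. The knockouts were 13-fold lower at 12-h light (adjusted p = 0.00572), beside differences of 0.23 in darkness and 0.44 at 3-h light. The interaction was -4.03. The WT 12-h light array, which makes this difference, adds no error to either fit, so its own variation was not tested.

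The probes of tnfa, a proinflammatory cytokine, and of fam78bb, whose role is not described here, had a smaller range. For tnfa the levels at 12-h light were -4.62 in WT, -5.95 in DKO and -6.07 in TKO larvae (2.62-fold lower, adjusted p = 0.0411, interaction not called). For fam78bb they were -4.76, -5.84 and -6.09 (2.31-fold lower, not called at 12-h light), and the interaction of -1.99 was among the calls. Both were dim, and on the WT arrays fam78bb was well above background at 12-h light alone. The gene kera, which encodes the corneal proteoglycan keratocan, was named after its values were seen. It stood at -1.69, -3.20 and -3.28 (adjusted p = 0.029), with a difference of -0.33 in darkness and -0.10 at 3-h light.

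Other lower genes were measured at 12-h light in WT larvae and not well above background in the knockouts. Among them zp3f.2, a zona pellucida glycoprotein gene, stood at -4.28 in WT larvae and was at least 6.12-fold lower in the knockouts. The thrombopoietin gene thpo stood at -4.51 and was at least 5.20-fold lower. The immune receptor gene nitr1d stood at -4.85 in WT larvae and was at least 4.13-fold lower, and the oxoglutarate receptor gene oxgr1a.1 at -4.88 and at least 4.04-fold lower. For cyp17a2, a steroid-modifying cytochrome P450 gene, the TKO array was measured and the DKO array was not, with levels of -5.0 in WT and -6.65 in TKO larvae (adjusted p = 0.110). On the remaining arrays zp3f.2 and oxgr1a.1 were nowhere well above background. On those arrays nitr1d was well above it in TKO larvae in darkness, and thpo on the TKO dark and DKO 3-h light arrays. The filter used only the arrays at 12-h light. Hence zp3f.2, thpo, nitr1d and oxgr1a.1 entered the test through the WT 12-h light array alone, and their p-values are not given. The other specific lower genes were mfap4.4, il22ra2, gpr34b and zgc:194655. Of these mfap4.4, a fibrinogen-domain gene of zebrafish macrophages, had a probe at 1.09 in WT and 0.01 in DKO larvae at 12-h light and not well above background in TKO larvae, so that its knockout mean rests on TKO. On the TKO arrays that probe was not well above background in darkness or at 3-h light either, where WT larvae stood at -1.96 and -0.03, so the difference was there under every lighting and its size followed the WT level. It was named after its values were seen.

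**Figure D3:**
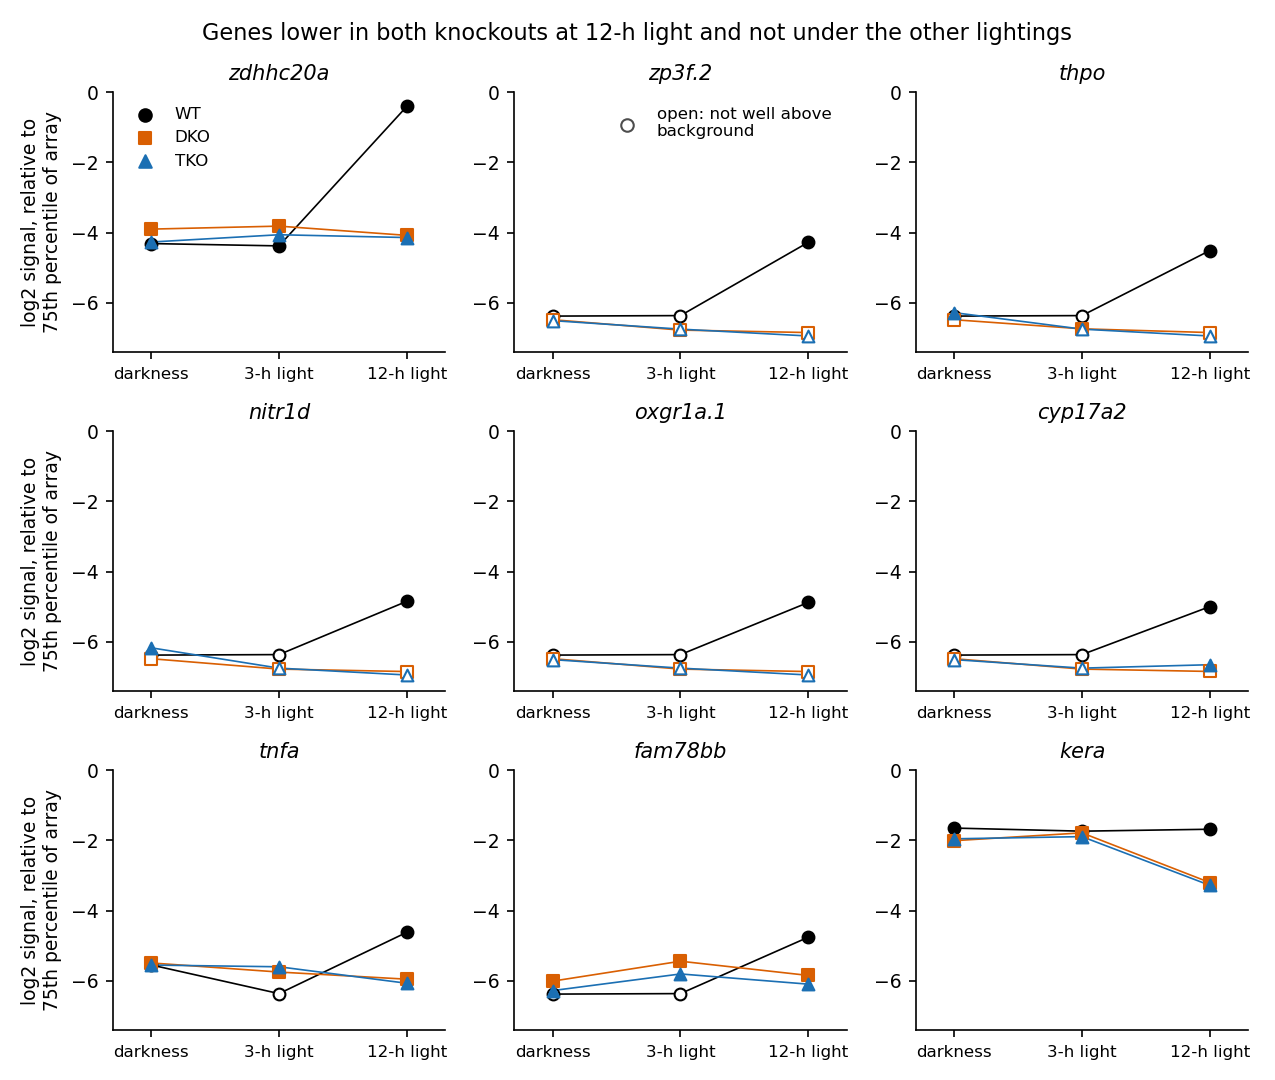
Log2 level (vertical axis) of 9 genes lower in the knockouts at 12-h light, by lighting (horizontal axis), 1 point per array, with open markers where the probe was not well above background. For zdhhc20a the WT point at 12-h light, at -0.41, stands apart from all others, and for zp3f.2 and oxgr1a.1 every other point is open.

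Interaction calls that carry a symbol were 4 in number, zdhhc20a and fam78bb as given above, and 1 probe each of zp3 and apbb1ip. The zp3 gene encodes an egg envelope protein and apbb1ip an adaptor of Rap signaling known from mammals. The zp3 probe had an interaction of -4.22 and the apbb1ip probe one of -4.61. Both probes were well above background on the WT 12-h light array alone and entered the test through it, so their p-values are not given as support. Other probes of the same genes did not show it, since the second zp3 probe differed by 0.18 at 12-h light and the remaining probes of apbb1ip by -0.02, 0.60 and 0.36.

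Of the 45 named genes, 19 were apart from WT under every lighting, beside 68 of all 13020 genes (0.522%). Most named genes were picked for their differences at 12-h light, so this count is partly set by that choice. For npsn, cptp, hsp90aa1.1, opn1mw3 and leng9 only 1 probe met the constant rule. The greatest difference was that of serpina10a, a member of the serpin protease inhibitor family, which was at least 295-fold higher in the knockouts at 12-h light. Both knockouts stood at 1.22 and 1.66, while the WT arrays at 12-h light and in darkness were not well above background. The WT array at 3-h light measured serpina10a at -3.29, where its difference was 4.53. Both knockouts lay between 0.84 and 1.66 on all of their 6 arrays. Both of its probes entered the limma fit through the knockout arrays at 12-h light and not the WT array, so their p-values are not given.

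The next genes by size had various roles. The glycosyltransferase genes b3gnt3.2 and b3gnt3.3 were at least 23.3-fold and at least 12.3-fold higher. The gene slc47a2.2, which encodes a multidrug exporter of the MATE family, was at least 7.11-fold higher. The probes of b3gnt3.2, b3gnt3.3 and slc47a2.2 also entered the fit through the knockout arrays alone, so no p-values are given. The protocadherin gene pcdh1g32 stood at -2.14 in WT, 0.56 in DKO and 1.18 in TKO larvae, and was 8.05-fold higher (adjusted p = 0.037). The knockout levels of pcdh1g32 lay between 0.26 and 0.88 on the arrays of darkness and 3-h light, and those of WT at -2.44 and -1.56. Cytochrome P450 genes were higher too, cyp2p9 by 7.70-fold (adjusted p of 0.077 and 0.0847) and cyp2ad2 by 5.35-fold (adjusted p = 0.0451). The ceramide phosphate transfer gene cptp was 5.75-fold higher as a mean of its probes, which differed by 4.73 (adjusted p = 0.00438) and 0.31. The brevican gene bcan, of the neural extracellular matrix, was 4.63-fold higher at 12-h light (adjusted p = 0.0306), with 1.54 in darkness and 0.75 at 3-h light, and was not constant.

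Fewer genes were lower under every lighting. The nuclear receptor gene nr0b2a, whose mammalian counterpart SHP represses bile acid synthesis, stood at 1.71 in WT, -1.85 in DKO and -0.91 in TKO larvae at 12-h light. In darkness the levels were 1.84, -2.37 and -1.29 and at 3-h light 1.11, -2.46 and -1.13, so that WT and knockout arrays did not overlap. This was 8.49-fold lower, with differences of -3.67 in darkness and -2.91 at 3-h light, and the adjusted p was 0.172. The gene isca1, an assembly factor for iron-sulfur clusters, stood at 1.82, -0.65 and -0.95, a level 6.15-fold lower, with adjusted p of 0.0273 and 0.0488 for its 2 probes. The pyruvate dehydrogenase kinase gene pdk3b stood at -3.09, -4.91 and -4.97, and was 3.61-fold lower (adjusted p = 0.0182). For leng9 the mean was 3.93-fold lower, though its probes differed by -3.0 and -0.95 and had adjusted p of 0.281 and 0.285.

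**Figure D4:**
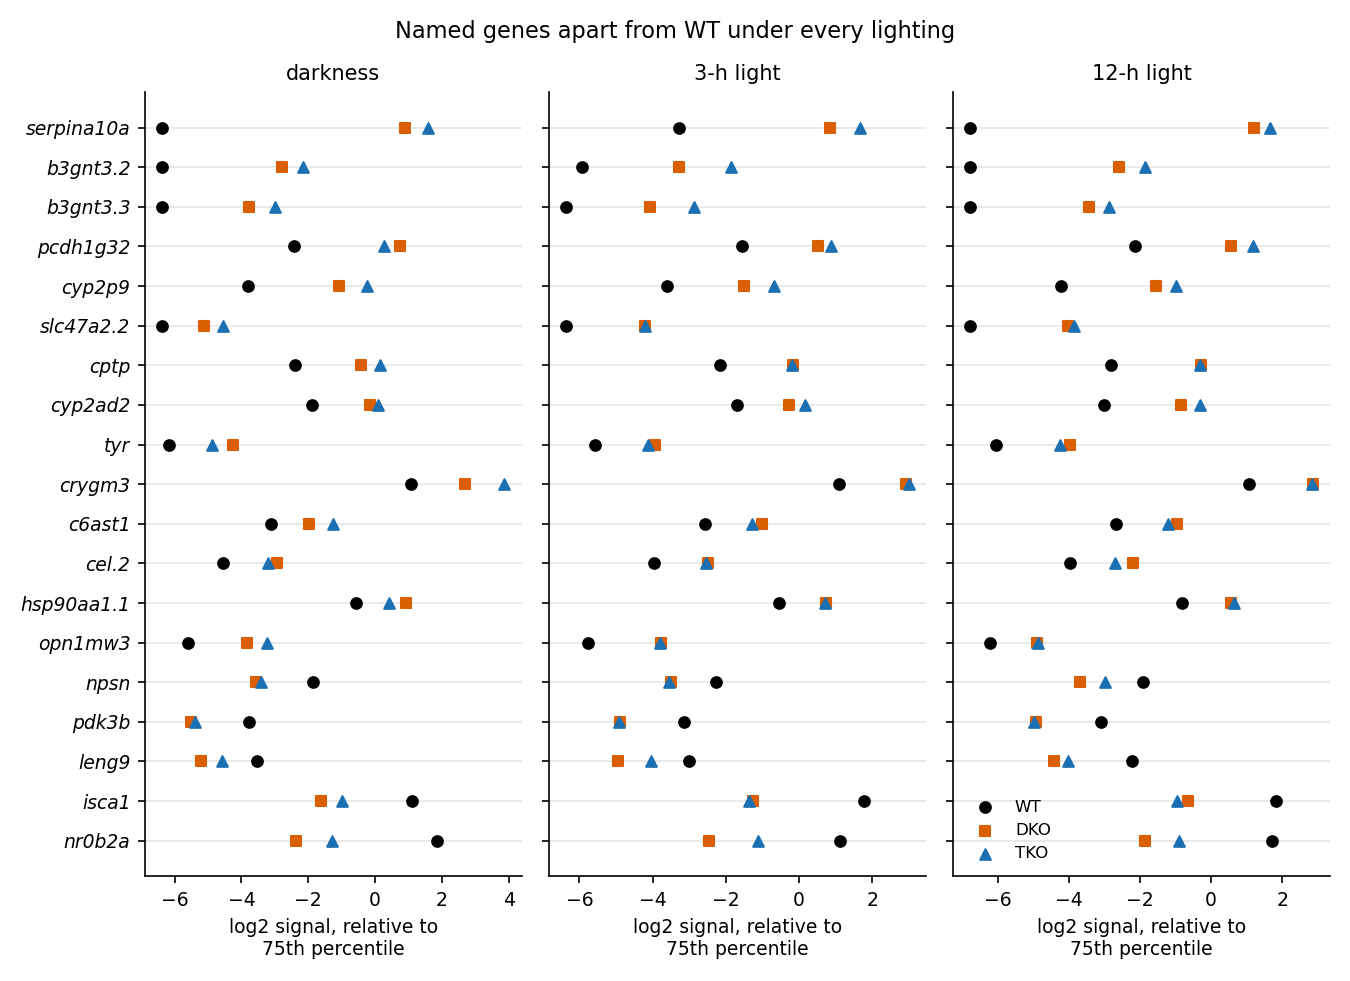
Log2 level relative to the 75th percentile of the array (horizontal axis) of the 19 named genes counted as constant (vertical axis), in 1 panel per lighting and with 1 point per array for WT, DKO and TKO larvae. The knockout points of serpina10a, at 1.22 and 1.66 at 12-h light, lie far to the right of WT, and those of isca1 and nr0b2a to the left of it in each panel.

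Tissue markers were examined for whole larvae, in which fewer cells of a type and less RNA per cell cannot be told apart. In the 10 lists of tissue markers, the median differences at 12-h light lay between -0.12 (intestine, and neutrophils and macrophages) and 0.17 (red blood cells), beside -0.06 for all genes. Single members stood apart from WT in both knockouts. In the eye these were guca1c, which encodes a guanylate cyclase activator of cones, 2.61-fold higher (its difference was 0.15 in darkness), opn1mw3, a green cone opsin gene, 2.52-fold higher, and the lens crystallin gene crygm3, 3.46-fold higher. Of the 42 photoreceptor and 43 lens genes, 23 and 17 were above WT as the mean of both knockouts, beside 5045 of 13020 genes (38.7%) overall. In the pancreas, the astacin protease gene c6ast1 was 3.02-fold higher and the lipase gene cel.2 2.89-fold higher, while 7 of the 31 measured genes of that list were above WT (22.6%). The globin gene hbbe3 was 2.72-fold higher, with 14 of 21 red blood cell genes above WT (66.7%). The melanin enzyme gene tyr was 3.89-fold higher, with 17 of 26 pigment cell genes above WT (65.4%). The liver-secreted ahsg2 was 3.19-fold higher, while 20 of the 50 liver genes were above WT (40.0%). Of these 8 genes, opn1mw3, crygm3, c6ast1, cel.2 and tyr were constant over the lightings. The difference of opn1mw3 was 2.07 in darkness and 1.98 at 3-h light, beside 1.33 at 12-h light. That of crygm3 was 2.22 in darkness and 1.86 at 3-h light, beside 1.79 at 12-h light. In darkness hbbe3 and ahsg2 differed by 1.64 and 1.08. At 12-h light, only opn1mw3 of the 8 genes had a probe with an adjusted p under 0.05 (0.029), and its second probe differed by 0.26.

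In several of these genes the probes disagreed. For tnnt2c, a troponin T gene, the probes differed by -2.29 and 0.04. For npsn, a neutrophil protease gene, 1 of 4 probes, not well above background on the DKO array, had a difference of -6.02 or below and the others lay between -0.28 and 0.60. For hsp90aa1.1, a chaperone gene of muscle, 1 probe differed by 3.66 (adjusted p = 0.012) and the others by 0.30 and 0.28. For tnnt2c, npsn and hsp90aa1.1 the gene mean thus rests on 1 probe.

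DNA replication genes leaned in 1 direction without passing the fold rule. Of 45 measured genes, 42 were above WT as the mean of both knockouts at 12-h light, beside 38.7% of all genes, with a median of 0.36 beside 0.12 in darkness and 0.24 at 3-h light. The cohesin acetyltransferase gene esco2 was the single member 2-fold apart, at -2.79 in WT, -1.60 in DKO and -0.96 in TKO larvae (adjusted p = 0.212). The 75 nuclear genes of the respiratory chain had a median of -0.18 at 12-h light, 0.32 in darkness and -0.03 at 3-h light, with 0 called in either direction at 12-h light. The 21 antigen presentation genes had a median of -0.29, with 3 above 0 (14.3%) and 0 called. Cholesterol synthesis genes had a median of 0.24 at 12-h light and 0.41 in darkness, and glycolysis genes -0.06 and -0.14, with 0 called in either list.

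**Figure D5:**
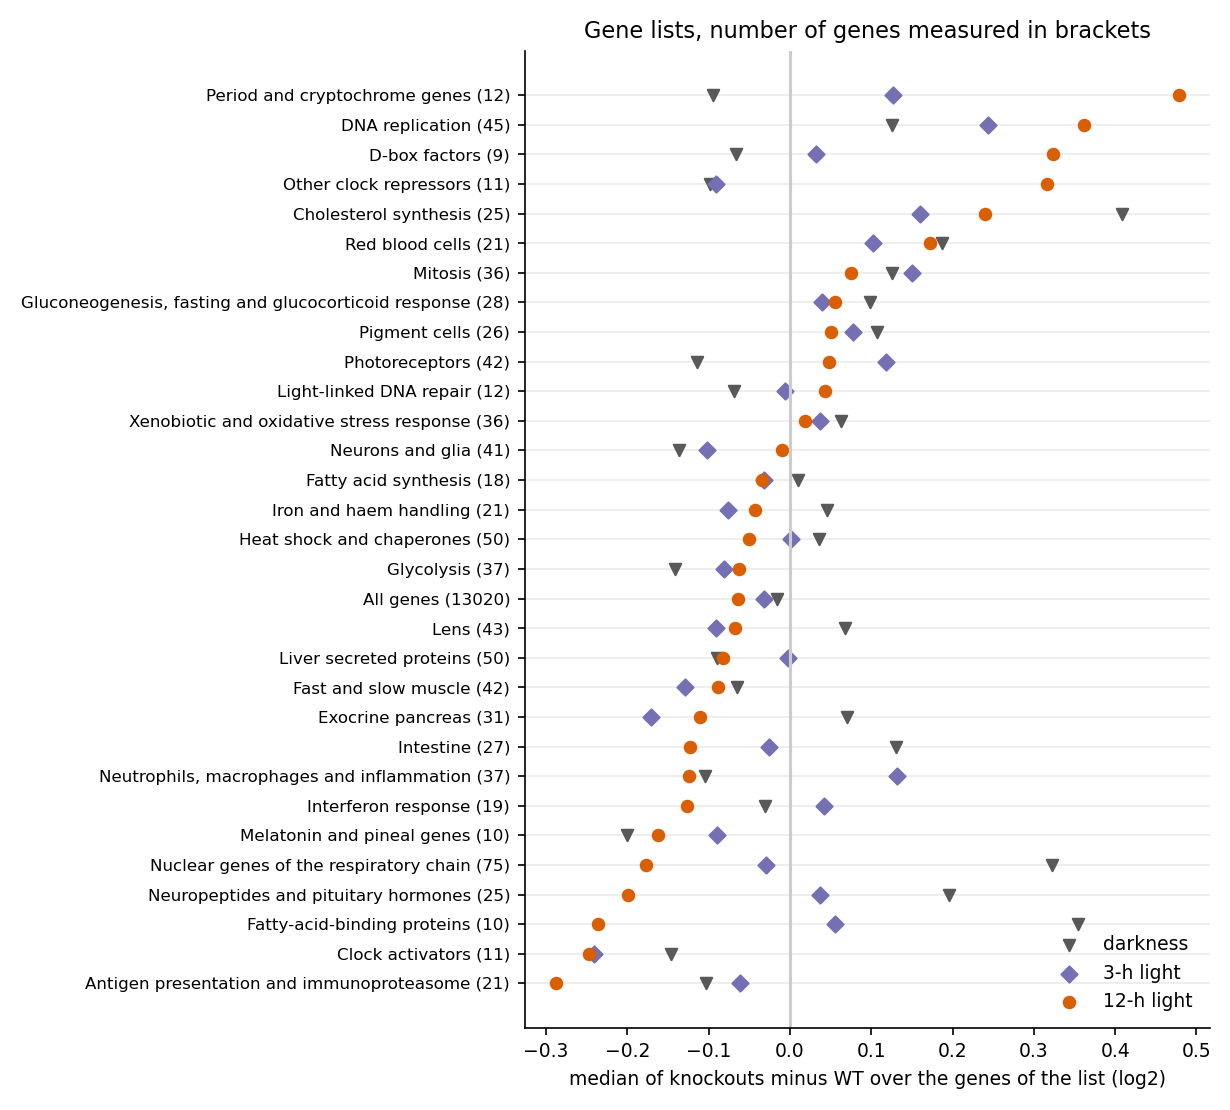
Median knockout minus WT difference (log2) over the genes of each list, for darkness, 3-h light and 12-h light, with the median over all genes for reference. The Per and Cry list reaches 0.48 and the DNA replication list 0.36 at 12-h light, while all genes stand at -0.06.

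The genes around the targeted loci were counted in RefSeq GRCz12tu gene order, taking 50 measured genes on each side. Around per2, 0 of 100 were 2-fold apart in both knockouts at 12-h light, around cry3a 1 of 100, and around cry1a 6 of 100 (6.0%), against 180 of 13020 (1.38%) overall. The 6 near cry1a were ovch1, tspan9b, glt8d2, mettl25, tnnt2c and mrps33, and the 1 near cry3a was fam78bb. The densest run of 100 genes anywhere held 12. These counts were not tested, and the sources used here do not give the strain background of each line at these loci.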

How the data were processed

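RNA of whole larvae, carrying Cy3, was read on Agilent zebrafish arrays of 1 colour, with 1 array per condition. The deposited intensity of each spot is, per the file headers, the signal of Agilent Feature Extraction, background-subtracted and detrended but not scaled across arrays. The deposited files also hold uncorrected median intensities and detection flags, and a table of the same signals that differs by a single factor for each array. The software in the authors' methods is not the one in the headers. From log2 signals the 75th percentile of the 43803 non-control spots of the array was subtracted, and spots of a probe were averaged. Outlier spots were left out, 1 to 8 per array. A probe was compared when any of the 3 arrays at 12-h light had it well above background, with dim signals raised to the lowest signal well above background for folds and counts, and not for limma. Of 43603 probes, 26094 had 1 gene symbol through RefSeq accessions.

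Groups were taken from the sample labels. A fold threshold of 2 was required of DKO and TKO each. limma 3.58.1 in R 4.3.3 gave adjusted p (Benjamini-Hochberg, 0.05) over all 39834 probes. With 1 array per condition, p-values of knockouts against WT measure only the spread between the DKO and TKO arrays. The interaction fit also takes part of its error from the WT arrays of the other lightings. The WT 12-h light array adds no error to either fit, so no p-value covers its own variation. In both fits the number of arrays limits the precision. Counts used Python 3.11.15, pandas 2.3.3 and numpy 2.4.6. Both limma models were also run on simulated data, drawn with the probe means and fitted spreads of these arrays.

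The members and gene lists were chosen with earlier results of these data known. Named genes are the 10 in each direction with the largest difference that every probe shared, the 8 in each direction most specific to 12-h light, the targeted and 2-fold apart clock genes, up to 4 of the 2-fold apart members of each other list, and up to 6 genes in each direction called for the interaction. The genes kera and mfap4.4 were chosen after their values were seen. Alternatives tried were quantile and median scaling, the deposited table, normexp (offset 50) with quantile normalization, other filters and no floor, folds of 1.5 and 3, trend and robust options, array weights, the slide as a random block, an additive model, light arrays only, the brightest probe, and leaving out each array except that of WT at 12-h light. The planned description of promoter motifs was not made, since no promoter sequences were used here.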

Additional observations from a re-analysis of the deposited data

Results flagged for a closer look

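A fit of the interaction between knockout and 12-h light called 11 probes. The term asks whether the knockout minus WT difference at 12-h light departed from that in darkness and at 3-h light. The values below are log2 interaction terms from limma, with negative values where the knockouts were lower at 12-h light.

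Among probes with a symbol, zp3 had -4.22, apbb1ip -4.61, zdhhc20a -4.03 and fam78bb -1.99. The 7 probes without a symbol had -5.67, -4.03, -3.44, -2.67, 2.53, -2.52 and -3.97. The probe at -5.67 was well above background on all 9 arrays, and its difference at 12-h light was -5.92. The lone WT 12-h light array adds no error to this fit, so its own variation was not tested. Of the 11 probes, 7 were well above background on the WT 12-h light array alone, and none of the 11 belongs to a clock-list gene. Those 7 passed the filter only through that array, so their calls do not establish a departure at 12-h light. The probe at 2.53 was well above background on 2 of the 9 arrays, and the WT 12-h light array was not among them. It passed the filter through the knockouts at 12-h light, so the same limit holds for it.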

How the results depend on the processing

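No paired analysis was possible because every condition has 1 array and the groups share only replicate number 1. Quantile normalization, the deposited table and the slide as a random block moved no count beyond 1.5 times. The 981 probes 2-fold apart became 275 after normexp, 2930 at 1.5-fold and 257 at 3-fold, and 981 to 1648 with 1 array left out (1648 without TKO at 12-h light). The 57 specific probes became 4 after normexp, 15 among probes well above background on all 9 arrays, 148 with no floor and 23 at 3-fold, and 52 to 175 with 1 array left out (98 without WT dark, 122 without WT 3-h light, 164 without DKO and 175 without TKO at 12-h light). The 370 constant probes became 93 after normexp, 1166 at 1.5-fold and 109 at 3-fold, and 393 to 504 with 1 array left out. The 274 limma calls became 449 with median scaling, 111 after normexp, 167 on probes well above background on all arrays, 1496 with array weights and 8301 in an additive model that fits 1 knockout difference for all lightings. They were 17 to 990 with 1 array left out (17 without DKO and 27 without TKO at 12-h light, 68 without either knockout's 3-h light array, 990 without either knockout's dark array). The 11 interaction calls became 6 with median scaling or no filter, 2 after normexp, on probes above background on all arrays, or with trend and robust options, 1158 with array weights (whose estimation did not converge) and 0 from the light arrays only (limma, 2307 with an unadjusted p under 0.05). They were 0 to 11 with 1 array left out, namely 0 without DKO (947 unadjusted) or TKO at 12-h light (975 unadjusted), 1 without TKO and 3 without DKO at 3-h light, and 4 without TKO and 7 without DKO in darkness. The share of higher probes stayed between 64.5 and 77.3%. Of 709 values of named genes, 90 moved by more than the spot spread and 3 values of genes called 2-fold apart reversed, npsn to 0.11 on probes above background everywhere and to 0.016 for its brightest probe, and tnnt2c to 0.035 for its brightest probe. The gene means of zp3 and apbb1ip, which were under 2-fold, changed sign as well, to 0.18 for zp3 and 0.48 for apbb1ip on probes above background everywhere. Of 40 named genes with a mean difference of at least 1 (log2), 20 were under 1 in some alternative, 17 of them after normexp, where tnfa was at -0.31, fam78bb at -0.32, thpo at -0.49, pdk3b at -0.68, zp3f.2 at -0.71, slc47a2.2 at 0.62, tyr at 0.55 and cry1b at 0.43. The mean difference of per1b ranged from 1.19 to 2.32, nr1d1 from 1.15 to 1.48, bhlhe40 from 1.26 to 1.57, aanat2 from -1.92 to -1.15 and per1a from 0.21 to 1.14. Causes of these changes were not tested.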
